A study of Mus musculus with 6 samples.

Results

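Oligodendrocyte progenitor cells (OPCs) were compared with neural rosettes, the stage from which OPCs were grown, in mouse cells of strain 129. The labels do not say whether the OPC arrays descend from the rosettes measured. Of the 6 arrays of the study, 3 belonged to this comparison by their labels: 2 of OPCs, from passage 3 and passage 11, and 1 of rosettes at day 5. It covered all 19938 genes that had a measured transcript with exactly 1 gene symbol, and the brightest transcript over the 6 arrays stood for each of the 999 genes that had several. The 2 oligodendrocyte arrays, at the same passages, entered only the estimate of the spread, and the array of epiblast stem cells (EpiSCs) is quoted only to show where a gene stood before the rosette.

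EpiSCs, pluripotent cells of the postimplantation epiblast, were kept in knockout serum replacement with FGF2. Rosettes were obtained from them within 5 days by exposure to SB431542 (an inhibitor of the activin, nodal and TGF-beta type I receptors), dorsomorphin (an inhibitor of BMP type I receptors), the BMP antagonist noggin, retinoic acid (RA) and sonic hedgehog (SHH), and their label gives the ventral neural tube as the stage. OPCs came from dissociated rosettes and were expanded in N2B27 medium that contained FGF2, PDGF-AA and SHH. SHH was thus common to the rosette and the OPCs, whereas RA and the inhibitors on the rosette side and FGF2 and PDGF-AA on the OPC side went with the cell type, and their part in any difference cannot be told apart from it. Oligodendrocytes were made from the OPCs with thyroid hormone, after FGF2 and PDGF-AA had been withdrawn.

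All levels are log2 values, so a difference of 1 is 2-fold, and each difference is the mean of the 2 OPC arrays minus the rosette array, given ± its standard error (SE) from limma. A gene is called where its p, adjusted by Benjamini-Hochberg over all genes, is under 0.05, and "rose" and "fell" are used only of these. The rosette had no replicate, so its spread was taken to equal that within the OPC and oligodendrocyte pairs. Nothing in the labels says whether the 2 OPC passages came from separate derivations, so a p-value here reflects no more than how far these arrays spread, passage included. In the fit, each gene's spread was also drawn towards a value estimated from all genes, with 3.32 prior against 2 residual degrees of freedom.

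Rosettes are rings of polarised neuroepithelial cells that resemble a section through the neural tube. In the ventral spinal cord, progenitors that express Olig2 give motor neurons early and OPCs later, and RA supplies hindbrain and spinal position and favours the formation of neurons. OPCs divide in response to PDGF-AA, which binds the receptor encoded by Pdgfra, and to FGFs, which act through the ERK kinase cascade, and they mature into myelinating cells when these factors are withdrawn.

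The array medians over the genes tested lay between 8.99 and 9.04 on the 3 arrays. The 2 OPC arrays correlated at 0.99 over genes (which are no independent replicates), and the rosette correlated at 0.954 with passage 3 and at 0.944 with passage 11. The 95th percentile of the absolute difference was 0.49 between the OPC arrays and 1.17 between the OPC mean and the rosette, and 125 genes were at least 2-fold apart between the 2 OPC arrays. In bulk samples such as these, fewer cells of a type and less RNA per cell cannot be told apart.

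The labels were first set against marker lists of 10 cell types. These lists were chosen with earlier results of these data known, so they are no independent check of the labels. Of 11 OPC markers, 9 were called higher in OPCs, where the background over all genes was 1.26% higher and 1.87% lower, and all 11 had a positive difference, with a median of 3.22. Olig2, the transcription factor of the domain that yields OPCs, was at 9.70 in the rosette and at 13.07 and 13.11 at passages 3 and 11. Lhfpl3, a tetraspan membrane protein gene that is prominent in OPCs, went from 8.90 to 12.35 and 12.41. Both OPC arrays thus lay far above the rosette and close to each other. The members not called were Cspg5, a membrane proteoglycan gene, at 1.16 ± 0.25 (adjusted p = 0.0909), and Nkx2-2, a factor needed for oligodendrocyte maturation, at 1.21 ± 0.42 (adjusted p = 0.256). Without the passage 3 array 8 of the 11 were called, without the passage 11 array 6, and without either oligodendrocyte array all 11.

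Of the rosette neuroepithelium markers, Pax6, Dach1, Prom1 and Zbtb16 fell, while Sox2 (11.98 in the rosette, 12.56 and 12.45 in OPCs) and Vim, which encodes the intermediate filament vimentin (13.95, 14.19 and 14.09), were not called. Without the passage 3 array 3 of these 11 markers were called lower, without the passage 11 array 2, and without either oligodendrocyte array 6. Neuron markers were bright in the rosette: 6 of 12 fell and 11 had a negative difference, with a median of -2.03 (3 without the passage 3 array, 2 without the passage 11 array and 10 without either oligodendrocyte array). Their summed linear level went from 72090.0 in the rosette to 19636 and 18743 in the OPC arrays. The array labelled rosette thus carried neuronal beside neuroepithelial RNA, and the part of the neuronal RNA in the results below was not tested.

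Among markers of other cell types, only the astrocyte list and the neural crest and Schwann list gave calls. The shares were 22.2% called higher and 28.6% called lower, in lists of 9 and 7, against 1.26% and 1.87% over all genes. Astrocyte markers had 2 of 9 called higher, Slc1a3 and Aldoc, and their summed linear level went from 9556 to 28841 at passage 3 and 20994 at passage 11 (1 was called higher without either OPC array in turn), while Gfap, the defining astrocyte filament gene, was at 7.89, 8.11 and 8.11 and the water channel gene Aqp4 at 7.66, 8.27 and 7.84. None of the 9 measured oligodendrocyte markers passed limma's test, although 2 were higher at an unadjusted p under 0.05, and 2 were called without either oligodendrocyte array; the myelin gene Mbp was at 8.87 in the rosette and at 8.66 and 8.77 in OPCs. Pluripotency markers gave no call among 7 (0 at an unadjusted p under 0.05). Microglia markers (7) and endothelial markers (6) also gave no call and 0 at an unadjusted p under 0.05, with differences from -0.31 to 0.26. Of 7 neural crest and Schwann cell markers, Ngfr fell from 10.92 to 9.10 and 9.12 and Tfap2b from 8.67 to 7.40 and 7.44, calls that were lost when either OPC array was left out, while Sox9, a glial and crest factor, and Erbb3, a neuregulin receptor gene, were higher without a call (1.16 ± 0.22 and 0.70 ± 0.21). In that list 2 were called higher and 3 lower without either oligodendrocyte array. Of 8 mesenchyme markers none was called (0 higher and 1 lower at an unadjusted p under 0.05), but the smooth muscle genes Acta2 (10.38 in the rosette, 12.81 and 11.66 in OPCs) and Tagln (7.90, 10.89 and 9.29) lay above the rosette on both arrays, more so at passage 3, and the proteoglycan gene Dcn lay below it (10.00, 8.49 and 7.75). Without either oligodendrocyte array 2 mesenchyme markers were called higher and 1 lower.

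Among all genes tested, 624 (3.13%) were called, of which 251 were higher and 373 lower. Every call had the same sign at both passages. That agreement is no replication, since both passages were set against the same rosette array and the test favours genes whose OPC arrays lie close together. The median absolute difference of the called genes was 1.83 for those that rose and 1.75 for those that fell, and the smallest called difference was 0.98. A count that rests on no variance estimate, that of genes at least 2-fold apart from the rosette at both passages, gave 455 higher (2.28%) and 602 lower (3.02%), or 5.30% in either direction. Of the called genes, 244 and 364 were among these, and 211 and 238 genes passed the fold limit without being called. At an unadjusted p under 0.05 in the limma fit, 1123 of the 19938 genes were higher and 1944 lower. Counts of list members at that limit are to be read against this background, which several lists do not exceed. The number of calls moved with the arrays used: 95 genes were called higher and 113 lower without the passage 3 array and 71 and 85 without the passage 11 array, while leaving out either oligodendrocyte array, which removes that pair from the estimate of the spread, gave 1128 and 1769. Of the 624 calls, 145 (62 higher and 83 lower) were also made with each OPC array left out in turn. Below, a call that held without either OPC array is 1 of these. Both of those fits set 1 OPC array against the same single rosette array and took the spread from the oligodendrocyte pair alone. They are therefore no replication of the difference. List counts without either oligodendrocyte array are to be read against the counts over all genes given here for that fit.

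**Figure D1:**
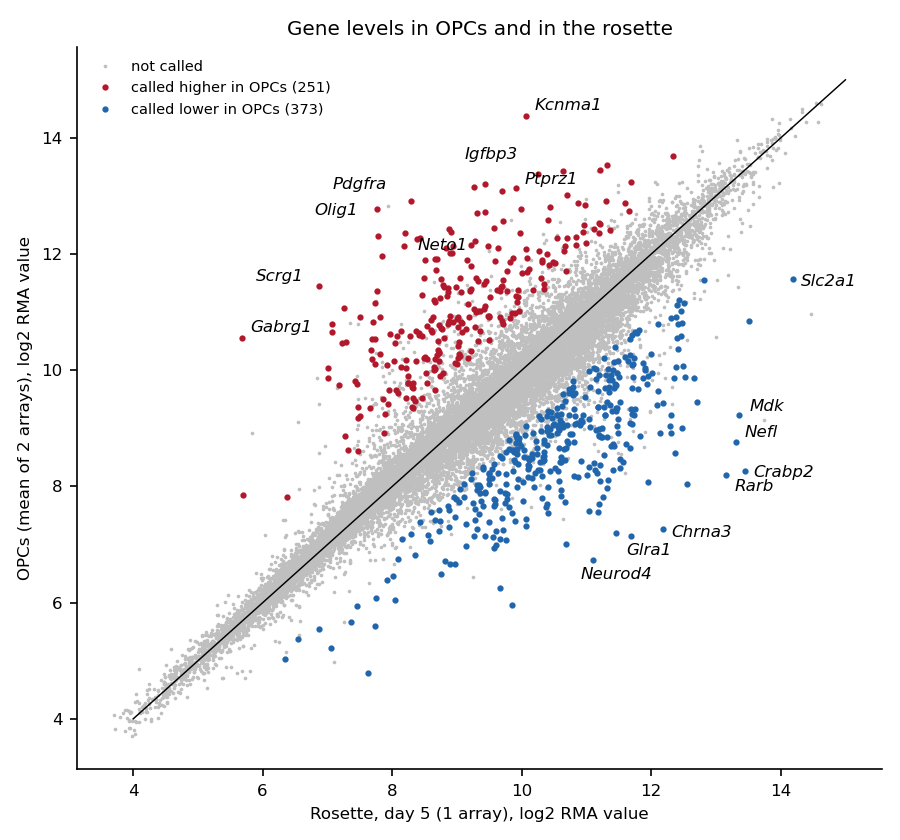
Level of each gene in the rosette (x axis, 1 array, log2 RMA value) against its level in OPCs (y axis, mean of 2 arrays, log2 RMA value). Red points are the 251 genes called higher in OPCs, blue points the 373 called lower, and grey points genes not called; the line marks equal levels. The called genes lie at least 0.98 from the line, with Olig1, Gabrg1 and Pdgfra farthest above it and Crabp2, Rarb and Chrna3 farthest below.

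Of 29 measured factors of the glial lineage, 10 rose and 3 fell, with a median difference of 0.96 against 0.02 over all genes. Those that rose were of 4 families: the bHLH genes Olig1 and Olig2, the SOX genes Sox6, Sox8 and Sox10, the nuclear factor I genes Nfib and Nfix, and the ETS genes Etv1, Etv4 and Etv5. The nuclear factor I genes, which act in the switch from making neurons to making glia, were low in the rosette and high on both OPC arrays. Nfix went from 9.05 to 11.58 and 11.60 (2.55 ± 0.18, adjusted p = 0.0063) and Nfib, at 9.28 in the rosette, differed by 3.18 at passage 3 and by 2.72 at passage 11 (2.95 ± 0.48, adjusted p = 0.0452). Their relative Nfia went from 10.32 to 12.28 and 12.42 and did not pass (2.03 ± 0.36, adjusted p = 0.0585).

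Among the SOX genes, Sox6, which delays oligodendrocyte maturation, went from 8.86 to 11.35 and 11.34 (2.48 ± 0.26, adjusted p = 0.0146). Sox8, a relative of Sox10, went from 9.86 to 12.03 and 11.84. Sox10 itself, the factor that drives myelin genes, went from 8.76 to 10.65 and 10.81. On each of them the 2 OPC arrays lay close together and well above the rosette. Factors of the list that fell were St18, a zinc finger gene of the Myt1 family that also counts among the neuronal factors (10.38 to 7.61 and 7.70), Zfp536 (9.54 to 8.36 and 7.95) and Prox1 (10.55 to 9.36 and 9.35). In the glial factor list 7 were called higher and 1 lower without the passage 3 array, 5 and 1 without the passage 11 array, and 15 and 7 without either oligodendrocyte array. Olig1, Olig2, Etv1, Etv5, Nfix and St18 held without either OPC array.

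Proneural and neuronal factors went the other way. Of 28, none rose and 11 fell, with a median of -1.28 and 22 negative differences. Neurod4, a proneural bHLH gene, fell from 11.11 to 6.77 and 6.68 (-4.38 ± 0.17, adjusted p = 0.0036), and Nhlh1, a bHLH gene of newly born neurons, from 11.45 to 7.10 and 7.29. Neurog1 fell from 11.34 to 8.03 and 8.20, and its relative Neurog2, which drives motor neuron formation, from 10.92 to 9.06 and 9.22. The onecut genes Onecut1 (11.21 to 8.28 and 8.46) and Onecut2 (11.69 to 9.13 and 9.53), expressed in early spinal neurons, fell too. Sox11 and Pou3f2, which are shared by progenitors and neurons, fell less, by 1.25 and 1.51. Neurod1 was not called, and its OPC arrays lay apart (11.11 in the rosette, 7.73 at passage 3 and 9.73 at passage 11). In the neuronal factor list 8 were called lower without the passage 3 array, 8 without the passage 11 array, and 19 lower and 1 higher without either oligodendrocyte array. Neurod4, Nhlh1, Nhlh2, Neurog1, Onecut1, Onecut2, Ebf2 and St18 held without either OPC array.

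Factors that define classes of spinal neuron were lower as well: 8 of 33 fell, none rose, and 27 differences were negative (median -0.59). Lhx1 and Lhx5, LIM genes of spinal interneurons, fell from 11.04 to 8.25 and 8.43 and from 9.80 to 7.53 and 7.79. Isl1, a motor neuron determinant, fell from 10.61 to 8.37 and 8.64. Foxp1 and Foxp2, Prdm8, Pax8 and Gata3 were the others that fell, by 1.19 to 2.17. The single large positive difference was that of Lhx2, a LIM gene better known from the forebrain, at 1.42 ± 0.39, which was not called (9.30 in the rosette, 10.60 and 10.84 in OPCs, adjusted p = 0.159). In the spinal neuron list 2 were called lower without the passage 3 array, 3 without the passage 11 array, and 15 lower and 1 higher without either oligodendrocyte array; Lhx1 and Lhx5 held without either OPC array.

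Genes that pattern progenitors along the dorsoventral axis gave 1 rise, that of Olig2, and 6 falls among 28, with a median of -0.59. Dbx1, a factor of interneuron progenitors near the middle of the dorsoventral axis, fell from 11.68 to 8.49 and 8.83 (-3.02 ± 0.22, adjusted p = 0.0062). Pax6 fell from 12.10 to 9.21 and 9.59, and Pax3, a dorsal factor, from 10.20 to 7.91 and 8.08. Sp8, Foxa1, a floor plate factor, and Irx3 fell by 1.82, 1.60 and 1.05. Dorsal, intermediate and ventral factors were thus all among those that fell. The progenitor domain list had 3 called lower without the passage 3 array, 3 without the passage 11 array and 13 without either oligodendrocyte array (3 higher in that fit, 1 in the others), and Olig2, Dbx1, Pax6 and Pax3 held without either OPC array.

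The Hox genes, which give cells their position along the body axis, were listed by paralog group. Of 17 genes of groups 1 to 6, 8 fell, all 17 differences were negative, and the median was -1.48. Of 20 genes of groups 7 to 13 none passed limma's test (2 lower at an unadjusted p under 0.05), and the median was 0.05. The summed linear level of the anterior genes was 5679 in EpiSCs, 32817 in the rosette and 9377 and 8543 in OPCs. That of the posterior genes was 5557, 5879, 5115 and 5518. As a sum the posterior genes thus lay near the EpiSC level in the rosette already. Whether that limited how far they could fall was not tested. Within the anterior groups the HoxB cluster gave 5 of the 8 calls: Hoxb5 fell from 12.31 to 9.15 and 8.70, Hoxb4 from 12.19 to 9.55 and 9.31, Hoxb1 from 11.47 to 8.86 and 9.21, Hoxb2 from 12.49 to 10.28 and 9.86, and Hoxb6 from 10.16 to 8.23 and 8.07. On all 5 genes both OPC arrays lay well below the rosette. The other calls of the 8 were Hoxa5, Hoxc4 and Hoxc5, so the falls were not confined to HoxB. Hoxa4, in contrast, stood at 9.99, 9.61 and 9.86, and Hoxa3 at 9.31, 8.58 and 8.60. The lowest differences among the posterior genes, those of Hoxb7 (-0.88 ± 0.19) and Hoxb9 (-0.97 ± 0.21), did not pass. Of 8 Hox cofactor genes, Pbx2 fell from 11.73 to 10.28 and 10.16 and Meis3 from 11.15 to 9.87 and 9.82. In the anterior Hox list 5 were called without the passage 3 array, 3 without the passage 11 array and 13 without either oligodendrocyte array. Hoxb1, Hoxb4 and Hoxb5 held without either OPC array, while the calls of the cofactors did not (0 without each OPC array, 5 without either oligodendrocyte array).

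**Figure D2:**
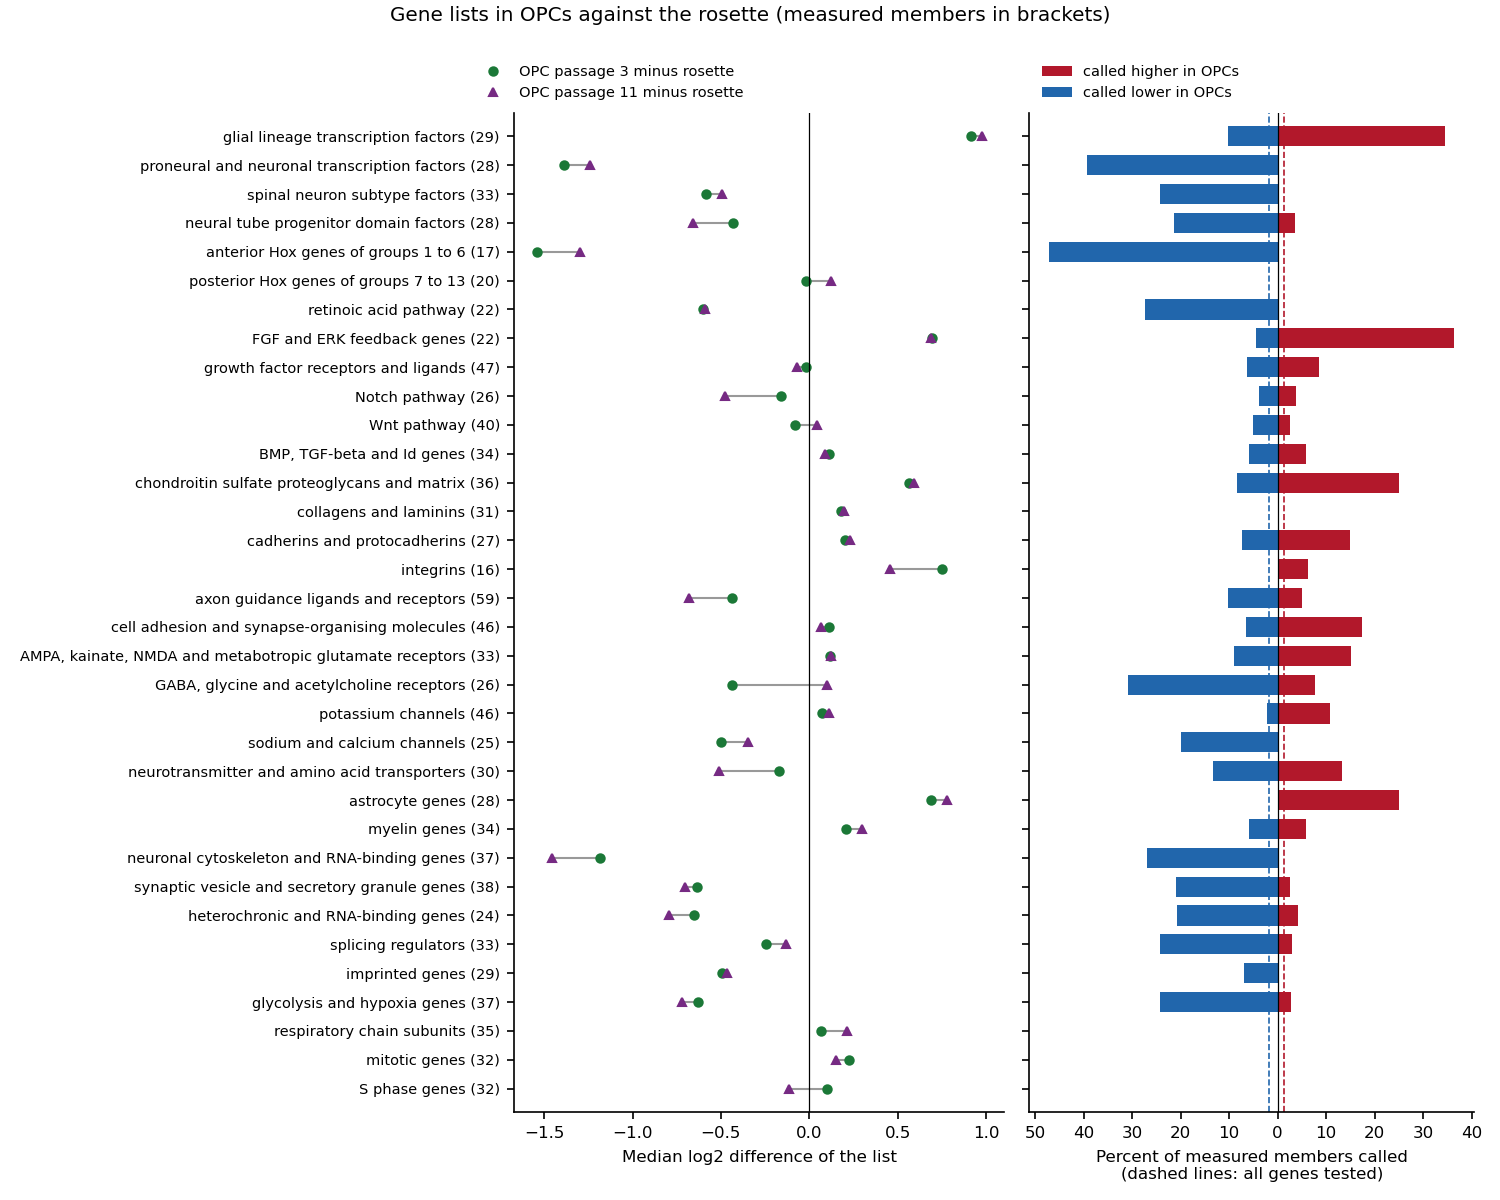
Gene lists in OPCs against the rosette, with the number of measured members in brackets. The left panel gives the median log2 difference of each list at passage 3 (circles) and at passage 11 (triangles), and the right panel the percent of members called higher (red bars, to the right) or lower (blue bars, to the left), with dashed lines at 1.26% and 1.87%, the shares over all genes. Among the lists drawn, which leave out the cell type markers, anterior Hox genes, neuronal factors and neuronal cytoskeleton genes lie lowest and glial factors highest, and mitotic, S phase and respiratory chain genes gave no call.

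Signalling genes were taken by pathway, beginning with RA, which was supplied to the rosette and not to the OPCs. Of 22 measured genes of RA transport, metabolism and response, 6 fell and none rose, with a median of -0.59. Crabp2, which carries RA into the nucleus, was at 13.45 in the rosette and at 8.17 and 8.36 in OPCs, a 36.4-fold difference (-5.19 ± 0.23, adjusted p = 0.0036). Rarb, an RA receptor that is itself a target of RA, was at 13.16, 8.10 and 8.31. In EpiSCs, which precede RA exposure, Crabp2 was at 9.96 and Rarb at 8.35, so both OPC arrays had Rarb close to, and Crabp2 below, the EpiSC level. Genes of RA removal fell with them: the hydroxylases Cyp26a1 (9.30 to 7.25 and 7.30) and Cyp26b1 (10.58 to 8.99 and 8.94) and the retinaldehyde reductase Dhrs3 (10.43 to 8.21 and 8.34). Not all of these were low in EpiSCs. Cyp26a1 was at 10.31 there, above the rosette, Dhrs3 at 10.14, near the rosette, and Cyp26b1 at 8.93. Rara, the broadly expressed receptor, fell from 10.70 to 9.30 and 8.80. Crabp1, the cytoplasmic RA-binding protein gene, stood at 14.46 in the rosette and at 12.05 and 9.90 in OPCs, and its -3.49 ± 1.07 was not called (adjusted p = 0.205). Its EpiSC level was already 12.52. In the RA list 2 were called without the passage 3 array, 2 without the passage 11 array and 11 without either oligodendrocyte array; Crabp2 and Rarb held without either OPC array.

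RA receptors bind direct repeats of a hexamer, and a repeat of the half-site NGTTCA, in the same orientation with 5 spacer bases between the half-sites, was searched on both strands in the 250 bases before each RefSeq start. It was found in 22 of 32851 such windows (0.067%), which belong to 21 genes, 10 of them measured here. Of these 10, 2 fell and 0 rose, where 1.87% of all genes fell and 1.26% rose. The 2 that fell were Rarb and Cyp26a1, the only matches among the 18 RA pathway genes that had a window. The motif was chosen with the fall of these genes known, so the counts are no test of it. Other half-sites and spacings were not searched, so a gene without a match may hold another repeat. A match is a description of the letters, not a site of binding. The 120 bases before each start are given below (RefSeq, GRCm38.p6, 5′ to 3′ on the strand of the gene), with the repeat in capitals, which shows that it lies close to the start in both. For Rarb it spans bases 53 to 37 before the start (chr14:16575477-16575596, minus strand), and for Cyp26a1 it reads on the opposite strand and spans bases 32 to 16 before the start (chr19:37697688-37697807, plus strand).
Rarb: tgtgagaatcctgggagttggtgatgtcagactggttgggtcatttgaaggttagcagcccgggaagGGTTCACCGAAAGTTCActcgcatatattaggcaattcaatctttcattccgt
Cyp26a1: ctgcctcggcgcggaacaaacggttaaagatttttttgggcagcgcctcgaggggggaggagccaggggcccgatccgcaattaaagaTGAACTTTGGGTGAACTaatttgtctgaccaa

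Of 22 FGF and ERK feedback genes, which respond to the ERK cascade, 8 rose and 1 fell, with a median of 0.61. ETS genes that rose, Etv1 and Etv5 among them, were also counted with the glial factors above, so these lists are not separate results. The ETS factor gene Etv5 was at 8.18 in the rosette and at 12.09 and 12.20 in OPCs (3.97 ± 0.17, adjusted p = 0.0036). In EpiSCs, which like the OPCs were grown with FGF2, it was at 11.70, so the rosette was the low point among the stages. Of the Sprouty genes, inhibitors of receptor kinase signalling, Spry4 went from 8.94 to 11.90 and 12.36, Spry2 from 8.79 to 11.44 and 11.49, and Spry1 from 10.07 to 12.12 and 12.05. Dusp6, an ERK phosphatase gene, rose from 10.44 to 12.66 and 12.98, while Dusp4, a phosphatase of the same family, fell from 10.61 to 8.69 and 8.16. In EpiSCs Dusp6 was at 11.79, above the rosette as for Etv5, but Dusp4 was at 9.48, below the rosette. The related inhibitor genes Spred2 and Spred3 were at 0.99 ± 0.33 and 0.71 ± 0.26 and were not called, whereas Spred1 rose by 1.37 ± 0.19. In the feedback list 5 were called higher and 1 lower without the passage 3 array, 4 and 0 without the passage 11 array, and 11 and 1 without either oligodendrocyte array. Etv1, Etv5, Spry2 and Spry4 held without either OPC array.

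Among 47 growth factors and receptors, 4 rose and 3 fell, with a median of -0.03. Of the receptor kinases, Pdgfra rose from 8.29 to 12.87 and 12.95, a 24.6-fold difference, and Egfr, the EGF receptor, from 8.76 to 11.72 and 11.41 (2.81 ± 0.24, adjusted p = 0.0092). Ret, the receptor of the GDNF family and a gene of motor neurons, fell from 11.11 to 8.25 and 8.57. The heparin-binding cytokines midkine and pleiotrophin are each other's only close relatives. Midkine's gene Mdk fell from 13.36 to 9.46 and 9.01 (-4.12 ± 0.30, adjusted p = 0.0063), and pleiotrophin's gene Ptn rose from 9.21 to 11.82 and 11.78 (2.58 ± 0.27, adjusted p = 0.0156). Pleiotrophin is a ligand of the phosphatase receptor encoded by Ptprz1, which rose from 9.92 to 13.08 and 13.19. Igfbp3, which binds insulin-like growth factors, was at 9.43 in the rosette and at 13.20 on both OPC arrays, and Fgf15 fell from 10.25 to 8.40 and 8.17. Pdgfc, another PDGF ligand gene, was higher on both arrays and not called (1.72 ± 0.30, adjusted p = 0.0572). In the growth factor list 3 were called higher and 3 lower without the passage 3 array, 3 and 2 without the passage 11 array, and 11 and 12 without either oligodendrocyte array. Pdgfra, Egfr, Igfbp3, Mdk and Ret held without either OPC array.

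Notch, Wnt and BMP genes gave 1 or 2 calls each way, and SHH genes none. Of the Notch list 3.8% were called higher and 3.8% lower, of the Wnt list 2.5% and 5.0%, and of the BMP list 5.9% and 5.9%. Over all genes the shares were 1.26% and 1.87%. Of 26 Notch pathway genes, Maml2, a coactivator, rose from 9.42 to 11.39 and 11.57, and Mfng, which glycosylates Notch, fell from 10.55 to 9.07 and 8.75. The Wnt list had 1 rise and 2 falls among 40. Lgr5 and Lgr4, related receptors for R-spondins, which enhance Wnt signals, moved oppositely: Lgr5 rose from 8.90 to 10.93 and 10.94, and Lgr4 fell from 11.80 to 9.97 and 9.37. Sfrp2, a secreted Wnt antagonist, fell from 12.36 to 9.86 and 9.88. Of 34 BMP and TGF-beta genes, Id3, an inhibitor of bHLH factors, rose from 9.03 to 10.59 and 10.40, and Tgfb2, a TGF-beta ligand, from 8.71 to 10.30 and 10.39. Tgfbr1, the receptor kinase that SB431542 blocks, fell from 12.38 to 11.05 and 10.79, and Skil, a repressor of SMADs, from 11.29 to 9.38 and 9.06. The SHH pathway had no call by limma among 15 genes (0 higher and 7 lower at an unadjusted p under 0.05); its target Gli1 stood at 10.03, 9.18 and 8.90 and the coreceptor gene Boc at 10.94, 9.60 and 9.25. Of these calls, Sfrp2 alone held without either OPC array. With the passage 3 array left out the Notch list had 1 call higher and 0 lower, the Wnt list 0 and 1 and the BMP list 0 and 1, and with the passage 11 array left out 0 and 0, 0 and 1, and 0 and 0. Without either oligodendrocyte array the counts were 1 and 9 for Notch, 4 and 9 for Wnt, 5 and 5 for BMP and 0 and 7 for SHH genes.

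**Figure D3:**
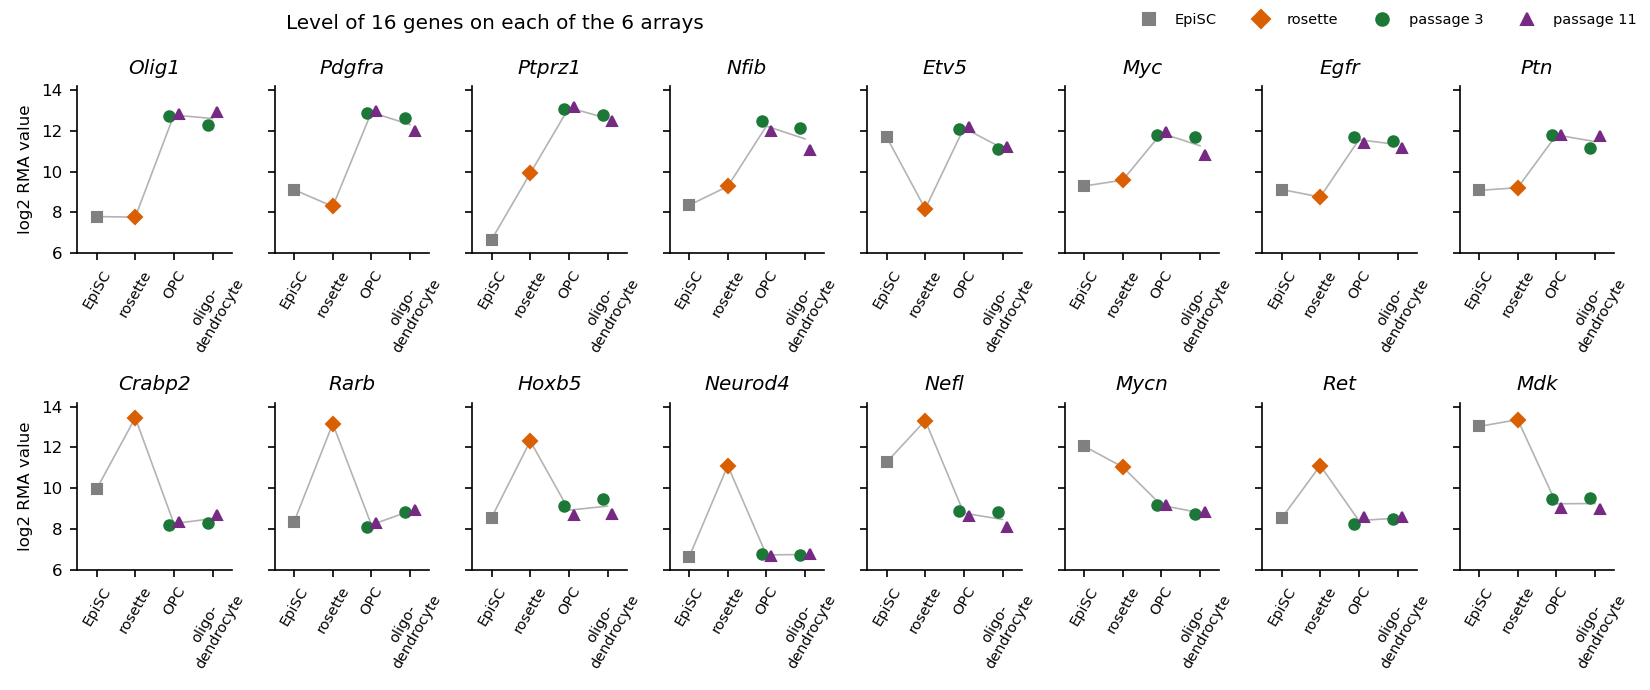
Level of 16 genes (log2 RMA value) on each of the 6 arrays, in the order EpiSC (square), rosette (diamond), OPC and oligodendrocyte (circles for passage 3, triangles for passage 11); grey lines join the stage means. The upper row holds genes called higher in OPCs than in the rosette and the lower row genes called lower. Etv5 is low in the rosette only, with EpiSCs at 11.70 and the rosette at 8.18, and Rarb, Hoxb5, Neurod4 and Ret are high in the rosette only.

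Of 36 proteoglycan and matrix genes, 9 rose and 3 fell, with a median of 0.58. Bcan, the brain matrix proteoglycan brevican, rose from 8.43 to 12.20 and 12.37. Omg, a glycoprotein of the oligodendrocyte surface, rose from 7.06 to 10.51 and 10.82. Cspg4, which encodes the classical OPC surface antigen NG2, rose from 8.77 to 10.54 and 10.90. Xylt1, the enzyme that starts the sugar chains of proteoglycans, rose from 9.71 to 12.53 and 12.60, and the other genes that rose were Sparcl1, Smoc1, Tnr and Sdc3. Those that fell were Gpc2, a glypican of developing neurons (11.47 to 9.45 and 9.25), and the testicans Spock1 and Spock2, by 1.87 and 2.09. Tnc, which encodes tenascin C, had a difference of 4.89 ± 1.28 and did not pass (7.94 in the rosette, 13.22 and 12.45 in OPCs, adjusted p = 0.145). In the proteoglycan list 5 were called higher and 1 lower without the passage 3 array, 4 and 0 without the passage 11 array, and 19 and 6 without either oligodendrocyte array. Ptprz1, Bcan, Omg and Xylt1 held without either OPC array.

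Timp4 and Timp3, inhibitors of metalloproteinases, rose from 7.78 to 12.42 and 12.21 and from 10.88 to 13.10 and 12.67. Serping1, the inhibitor of complement C1 proteases, fell from 11.18 to 7.44 and 7.69, and these with Mmp24, which fell by 1.06, were the calls among 26 proteases and inhibitors. Timp4 and Serping1 held without either OPC array, and the list had 1 call each way without each OPC array and 9 higher and 5 lower without either oligodendrocyte array. Among 27 cadherins, the protocadherin genes Pcdh11x (9.22 to 11.86 and 12.46), Pcdh15 (7.73 to 10.39 and 10.69) and Pcdh9 (8.47 to 10.76 and 10.41) rose with Cdh10, while Pcdh8 and Cdh8 fell by 1.85 and 1.68. Cadherin calls were 1 higher and 0 lower without the passage 3 array, 2 and 0 without the passage 11 array and 11 and 4 without either oligodendrocyte array, and Pcdh11x held throughout. Of 16 integrin genes, Itga8 alone was called (7.80 to 10.23 and 10.35), also without each OPC array in turn, while 14 differences were positive and the list median was 0.55, and 7 rose and 1 fell without either oligodendrocyte array. The 31 collagen and laminin genes gave no call by limma (3 higher and 1 lower at an unadjusted p under 0.05, 4 and 1 called without either oligodendrocyte array); the laminin chain gene Lama4 had the highest difference, at 2.44 ± 0.45 (adjusted p = 0.0631).

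Axon guidance genes had 3 calls higher and 6 lower among 59, and 45 negative differences, with a median of -0.53. Of the Eph receptor genes called, Epha3 fell from 11.19 to 7.77 and 7.61, Epha4, which steers motor axons, from 11.20 to 9.07 and 8.90, and Epha7 from 10.68 to 8.73 and 8.60, while Epha5 rose from 8.52 to 9.82 and 10.07. Robo1 and Robo3, receptors for Slit proteins, fell from 12.40 to 10.52 and 10.59 and from 9.57 to 7.53 and 7.80. The netrin receptor gene Unc5a fell from 11.19 to 8.88 on both OPC arrays. Sema3a, a repellent for axons, rose from 9.18 to 11.05 and 11.24, and Sema6a from 11.66 to 12.69 and 12.80. The ligand genes Slit1, Slit2 and Slit3 were lower by -1.92, -2.95 and -1.40 and were not called, with SEs from 0.71 to 1.04. In the guidance list 0 were called higher and 2 lower without the passage 3 array, 0 and 1 without the passage 11 array, and 6 and 26 without either oligodendrocyte array; only Unc5a held without either OPC array.

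Of 46 adhesion and synapse-organising genes, 8 rose and 3 fell. Ncam2, a neural cell adhesion gene, rose from 7.07 to 10.66 and 10.94, and Cntn1, a contactin, from 9.98 to 12.63 and 12.93. Its relative Cntn2 fell from 11.52 to 8.36 and 8.59. L1cam, which promotes axon growth, fell from 11.56 to 8.41 and 8.44, and Nfasc, an adhesion gene of axons and their nodes, from 10.47 to 9.26 and 9.11. The synaptic organisers Nlgn3, Lrrc4c and Mdga2 rose by 2.19, 2.38 and 2.52. In the adhesion list 5 were called higher and 2 lower without the passage 3 array, 4 and 2 without the passage 11 array, and 15 and 8 without either oligodendrocyte array, and Ncam2, Cntn1, Neto1, Cntn2 and L1cam held without either OPC array.

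Of 33 glutamate receptor and accessory genes, 5 rose and 3 fell. Neto1, an accessory subunit of kainate receptors, rose from 8.19 to 12.04 and 12.67 (4.16 ± 0.29, adjusted p = 0.0062). Grm5, a metabotropic receptor coupled to calcium release, rose from 8.51 to 11.84 and 11.96, while Grm2 and Grm4, which are coupled to inhibition of adenylyl cyclase, fell from 11.29 to 9.26 and 9.21 and from 9.67 to 8.40 and 8.64. Grin3a, an NMDA receptor subunit that lowers calcium flow, rose from 8.41 to 10.77 and 10.52. Of the accessory proteins of AMPA receptors, Cacng8 rose by 1.13 and Cacng3 fell by 1.40. AMPA receptor subunits were higher on both OPC arrays and not called, with Gria3 at 2.32 ± 0.54, Gria4 at 1.30 ± 0.29 and Gria2 at 0.86 ± 0.28. In the glutamate receptor list 2 were called higher and 1 lower without the passage 3 array, 2 and 0 without the passage 11 array, and 10 and 6 without either oligodendrocyte array; Neto1 and Grm5 held without either OPC array.

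Of 26 GABA, glycine and acetylcholine receptor genes 8 fell and 2 rose, and 5 of those that fell encode nicotinic subunits: Chrna3 was at 12.18 in the rosette and at 7.18 and 7.37 in OPCs (-4.91 ± 0.18, adjusted p = 0.0036), Chrna5 at 11.04, 7.48 and 7.69, Chrnb4 at 11.42, 8.27 and 8.31, Chrnb2 at 11.42, 8.75 and 8.64, and Chrna7 at 11.15, 9.14 and 8.79. The first 3 of these subunits assemble into the receptor of autonomic and some brainstem neurons, and their genes lie next to each other in the genome. The glycine receptor genes Glra1 (11.68 to 7.16 and 7.14) and Glra2 (7.45 to 5.96 and 5.94) fell, as did Gabbr1, a metabotropic GABA receptor gene, by 2.06. Glrb, the beta subunit gene of the glycine receptor, lay on the other side, at 9.74 in the rosette and at 11.26 and 10.95 in OPCs, and was not called (1.36 ± 0.35, adjusted p = 0.141). The calls in the other direction were Gabrg1, a GABA-A receptor subunit gene, and Chrm3, a muscarinic receptor gene. Gabrg1 rose from 5.68 to 9.97 and 11.15 (4.88 ± 0.64, adjusted p = 0.0256), the lowest rosette level among the 25 largest rises and a gap of more than 1 between the OPC arrays. Chrm3 rose from 9.02 to 10.42 and 10.43. In this receptor list 1 was called higher and 5 lower without each OPC array in turn, and 5 and 12 without either oligodendrocyte array. Gabrg1, Chrna3, Chrna5, Chrnb2, Chrnb4 and Glra1 held without either OPC array.

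Potassium channel genes gave 5 rises and 1 fall among 46. Kcnma1, which encodes the large-conductance calcium-activated channel, rose from 10.07 to 14.23 and 14.53 (4.31 ± 0.23, adjusted p = 0.0058). Also called were genes of the A-type current, the pore subunits Kcnd2 (8.93 to 11.90 and 12.13) and Kcnd3 (9.77 to 11.35 and 11.37) and their calcium-binding partner Kcnip3 (9.27 to 12.94 and 13.38). Kcnj16, an inward rectifier, rose from 7.70 to 10.40 and 11.28, and Kcnh2 fell by 1.32. Voltage-gated sodium and calcium channel genes had 5 falls and no rise among 25, with a median of -0.50. Scn3a and Scn9a, sodium channel genes of embryonic and sensory neurons, fell from 9.74 to 7.72 on both OPC arrays and from 8.96 to 7.40 and 7.55, and the calcium channel genes Cacnb4, Cacna2d2 and Cacna1e fell by 1.35, 1.21 and 1.08. In the potassium list 4 were called higher and 0 lower without the passage 3 array, 3 and 0 without the passage 11 array and 9 and 6 without either oligodendrocyte array. In the sodium and calcium list none was called without either OPC array in turn and 10 were lower and 1 higher without either oligodendrocyte array. Kcnma1, Kcnd2 and Kcnip3 held without either OPC array.

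Among 30 transmitter and amino acid transporter genes, 4 rose and 4 fell. The vesicular transporters for monoamines (Slc18a2, 11.26 to 7.89 and 7.75), glutamate (Slc17a6, 9.89 to 7.32 and 7.50) and acetylcholine (Slc18a3, 10.52 to 8.26 and 8.37) fell, as did Slc6a5, which takes up glycine at the surface of neurons, by 1.54. The GABA transporter gene Slc6a11 rose from 8.39 to 12.46 and 12.06 (3.87 ± 0.35, adjusted p = 0.0098), the glutamine transporter gene Slc38a3 from 8.83 to 12.02 and 12.19, and the glutamate transporter genes Slc1a1 and Slc1a3 by 2.28 and 1.60. Slc1a2, the other glial glutamate transporter gene, was lower and not called, at -1.18 ± 0.36. Among 21 ion and nutrient transporters, the bicarbonate cotransporter gene Slc4a4 (8.67 to 11.85 and 11.59), the sodium pump subunit gene Atp1b2 (8.79 to 11.30 and 11.56), Slc12a4 and Tmem100 rose. The lactate exporter gene Slc16a3 fell from 11.71 to 9.29 and 9.22, together with the glucose transporter gene Slc2a1. In the transmitter list 2 were called higher and 3 lower without the passage 3 array, 1 and 3 without the passage 11 array, and 4 and 9 without either oligodendrocyte array, and in the ion list 2 and 2, 2 and 1, and 5 and 5. Slc6a11, Slc4a4, Atp1b2, Slc16a3, Slc17a6, Slc18a2 and Slc18a3 held without either OPC array.

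Of 38 other G protein-coupled receptors, 3 rose and 2 fell. Calcrl, the receptor component for calcitonin gene-related peptide and adrenomedullin, rose from 8.69 to 11.93 and 11.90 (3.23 ± 0.17, adjusted p = 0.0058), and Gpr17, a receptor of OPCs that are about to mature, from 8.25 to 10.03 and 9.54. With Lgr5 and Lgr4, described above, Celsr3, a cadherin-type receptor of growing axons, completed the calls, with a fall of 1.66. Of these only Calcrl was called without each OPC array (1 higher and 0 lower in each), and 8 rose and 6 fell without either oligodendrocyte array.

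**Figure D4:**
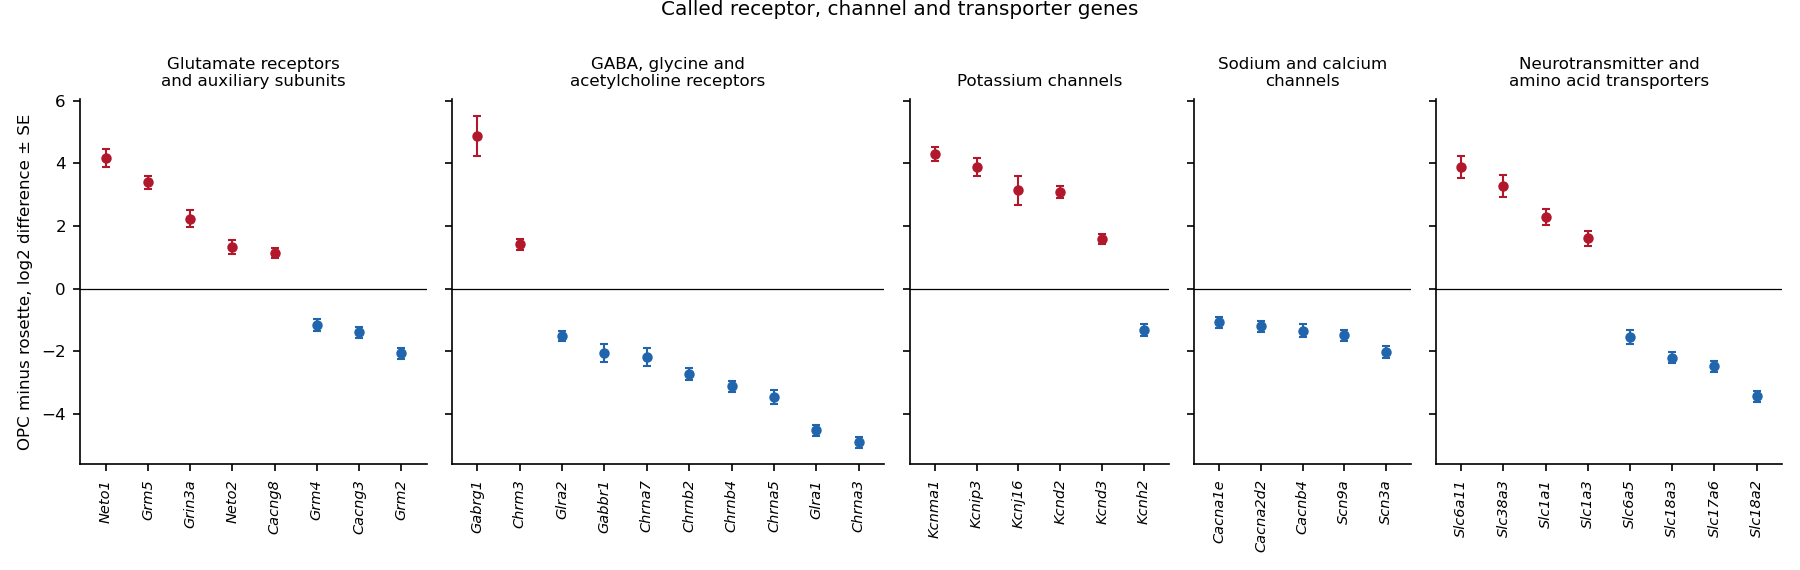
Difference between OPCs and the rosette (log2, y axis, ± SE of the limma fit) for the called genes of 5 groups of receptors, channels and transporters. Red points are higher and blue points lower in OPCs. Chrna3 is lowest at -4.91 and Gabrg1 highest at 4.88, and all 5 called sodium and calcium channel genes lie below 0.

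Genes of astrocytes, the other macroglial type, were partly higher. Of 28, 7 rose and none fell, with a median of 0.81. Acsbg1, an acyl-CoA synthetase gene, rose from 9.57 to 12.58 and 12.31, Ttpa, a tocopherol carrier gene, from 7.02 to 10.13 and 9.60, and Mlc1, a membrane protein gene of astrocyte endfeet, from 8.74 to 11.14 and 11.36. The others were Slc1a3, Slc4a4, Atp1b2 and Aldoc. Aldh1l1, a folate enzyme gene used to mark astrocytes, differed between the passages, with 7.95 in the rosette, 11.25 at passage 3 and 8.65 at passage 11, and Hepacam, an adhesion gene of the same cells, did so in the opposite direction, with 7.83, 8.39 and 10.70. Neither was called. In the astrocyte list 4 were called without the passage 3 array, 5 without the passage 11 array, and 13 higher and 2 lower without either oligodendrocyte array; Acsbg1, Aldoc, Atp1b2 and Slc4a4 held without either OPC array.

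Myelin genes gave 2 rises and 2 falls among 34. Gjc3, a connexin gene of oligodendrocytes, rose from 7.84 to 11.34 and 12.60, and Plekhb1 from 7.96 to 10.70 and 10.54. The falls were those of Cntn2 and Nfasc, adhesion genes that neurons also express. Cnp and Ugt8a, which encode early enzymes of the maturing oligodendrocyte, were higher on both OPC arrays without passing, Cnp at 1.19 ± 0.30 (adjusted p = 0.127) and Ugt8a at 1.52 ± 0.29 (adjusted p = 0.0686), and Bcas1, a gene of newly formed oligodendrocytes, stood at 7.85, 9.95 and 10.18 (2.22 ± 0.45, adjusted p = 0.0788). In the myelin list 3 were called higher and 1 lower without the passage 3 array, 2 and 1 without the passage 11 array, and 9 and 6 without either oligodendrocyte array, and Gjc3, Plekhb1 and Cntn2 held without either OPC array.

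Of 37 cytoskeleton and RNA-binding genes of neurons 10 fell, none rose, and 34 differences were negative, with a median of -1.46. Of the 10, 7 encode RNA-binding proteins, described with the splicing regulators below. The neurofilament genes Nefl (13.32 to 8.89 and 8.65), Nefm (11.95 to 8.07 and 8.09) and Ina (13.51 to 10.73 and 10.95) fell by 2.66 to 4.54. Stmn2, a microtubule regulator of growing axons, had a difference of -4.59 ± 1.95 without a call (13.74 in the rosette, 10.48 at passage 3 and 7.82 at passage 11), and its level differed by -2.66 between passage 11 and passage 3. Dcx, a microtubule gene of young neurons, was at 12.66, 11.47 and 11.20, and Map2, a gene of dendrites, was not lower in OPCs (12.62, 12.77 and 12.93). In the cytoskeleton list 4 were called without each OPC array in turn and 23 without either oligodendrocyte array.

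Of 38 synaptic vesicle and secretory granule genes, 8 fell and 1 rose. Sncg, which encodes gamma-synuclein, fell from 12.31 to 9.15 and 9.31, the calcium sensor gene Syt4 from 11.01 to 8.12 and 8.28, and the granule genes Chgb and Resp18 by 1.94 and 2.22. Snap25, a component of the release machinery, fell from 11.87 to 10.27 and 10.00, and Syp from 10.55 to 9.37 and 9.08. Syn2, a synapsin gene, rose from 9.00 to 10.12 and 10.09. Among 20 neuropeptide genes, Adcyap1 (10.56 to 8.13 and 8.39), Sst (10.40 to 9.30 and 9.31) and Gal (8.42 to 7.36 and 7.42) fell. In the vesicle list 3 were called lower and 0 higher without each OPC array in turn, and 19 and 2 without either oligodendrocyte array; in the neuropeptide list 1 was called without each OPC array and 5 without either oligodendrocyte array. Nefl, Nefm, Celf3, Sncg, Syt4, Resp18 and Adcyap1 held without either OPC array.

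Of 33 splicing regulators 8 fell and 1 rose. Those that fell were Celf3 (11.27 to 8.52 and 8.57), Celf4, the Hu genes Elavl2, Elavl3 and Elavl4, Srrm4, which includes neuronal microexons (9.78 to 7.75 and 7.80), Rbfox1 (10.65 to 8.55 and 8.75) and Msi1. Mbnl1, which promotes adult splice forms, rose from 10.26 to 11.98 and 12.12 (1.79 ± 0.20, adjusted p = 0.018). Its relative Mbnl2 was at 10.97, 11.91 and 12.15 and was not called (1.06 ± 0.26, adjusted p = 0.12). Of the 8 that fell, all but Msi1 also stand in the neuronal cytoskeleton and RNA-binding list, so the lists are not separate results. In the splicing list 0 were called higher and 2 lower without each OPC array in turn, and 3 and 12 without either oligodendrocyte array.

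Genes of the neuroepithelium and of early developmental timing were lower in part. Of 33 neuroepithelial and radial glial genes 7 fell and 1, Slc1a3, rose, with a median of -0.44. Nr6a1, a nuclear receptor gene of the early neural tube and trunk, fell from 10.59 to 9.12 and 9.17, and Msi1, an RNA-binding protein gene of neural stem cells, from 12.11 to 10.81 and 10.77. Of 24 heterochronic genes, which are high early in development and low later, 5 fell and 1 rose. Lin28b, which blocks maturation of let-7 miRNAs, fell from 10.32 to 8.17 and 8.18 (-2.14 ± 0.17, adjusted p = 0.0079), while its paralog Lin28a was at 9.45, 8.70 and 8.91 and was not called. Igf2bp1, an mRNA-binding protein gene of the same programme, was at 11.89, 9.34 and 8.01 and was not called (-3.22 ± 0.73, adjusted p = 0.101). Of the MYC genes, Mycn fell from 11.04 to 9.17 and 9.15 (-1.88 ± 0.17, adjusted p = 0.0093), and Myc rose from 9.59 to 11.82 and 11.95 (2.30 ± 0.36, adjusted p = 0.043). Pluripotency genes had 2 falls among 34, Sall4 (10.57 to 8.62 and 8.69) and Otx2 (9.67 to 8.08 and 7.77), and no rise. In the neuroepithelial list 0 were called higher and 3 lower without the passage 3 array, 0 and 2 without the passage 11 array, and 1 and 15 without either oligodendrocyte array. In the heterochronic list the counts were 0 and 1, 0 and 1, and 1 and 14, and in the pluripotency list 0 and 0, 0 and 0, and 0 and 4. Pax6, Dach1 and Lin28b held without either OPC array. Without the passage 3 array Myc had an adjusted p of 0.096 and Mycn of 0.0562.

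Of 39 chromatin regulators 3 fell and none rose. Actl6b, the neuron-specific subunit of the BAF remodelling complex, fell from 10.91 to 8.39 and 8.50 (-2.46 ± 0.17, adjusted p = 0.0062), Chd3 from 10.94 to 9.35 and 9.13, and Ezh1, a Polycomb methyltransferase gene, from 9.91 to 8.77 and 8.73. Imprinted genes had 2 falls among 29, Cdkn1c (11.70 to 9.59 and 9.78) and Usp29 (9.37 to 7.95 and 7.53), but 24 of the 29 differences were negative and the median was -0.42. Meg3, a long noncoding RNA of the maternal allele, was at 11.99, 9.26 and 9.34 (-2.69 ± 0.59) and was not called (adjusted p = 0.0951). In the chromatin list 1 was called lower without each OPC array in turn and 7 lower and 2 higher without either oligodendrocyte array, and in the imprinted list 0 without each OPC array in turn and 13 lower and 1 higher without either oligodendrocyte array. Actl6b held without either OPC array.

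Meg3 is the start of a long stretch of chromosome 12 that ends at Dio3 and holds many miRNA genes, so the 300 measured miRNA genes were divided by whether they lie there; this division, and every miRNA named here except Mir377, was chosen after the values had been seen. The arrays read precursor or host transcripts, not the mature strand. Of the 40 miRNA genes in that stretch, 5 fell and none rose, 10 were at least 2-fold lower at both passages, 33 had a negative difference, and the median was -0.60. Of the other 260, 2 fell and none rose (limma), 5 were at least 2-fold lower and 1 at least 2-fold higher at both passages, and the median was 0.03. Mir377 was at 9.85 in the rosette and at 5.92 and 6.01 in OPCs (-3.89 ± 0.47, adjusted p = 0.0208), and in EpiSCs it was at 10.35. Mir300 fell from 7.74 to 5.71 and 5.49, Mir543 from 7.76 to 6.03 and 6.14, Mir154 from 6.35 to 5.09 and 4.96, and Mir136 from 6.54 to 5.36 and 5.39. On all 5 the OPC arrays lay together below both the rosette and the EpiSC array.

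Outside that stretch the falls were those of Mir10a, which neighbours Hoxb4 (7.62 to 4.71 and 4.87, -2.83 ± 0.17, adjusted p = 0.0058), and Mir100 (8.75 to 6.59 and 6.42). Mir9-1, the precursor of a miRNA of neural progenitors, was at 9.16, 11.72 and 11.07 and was not called (2.23 ± 0.40, adjusted p = 0.0587). Mir219a-2, the precursor of a miRNA that promotes oligodendrocyte maturation, was at 11.59 in the rosette and at 8.26 and 8.21 in OPCs and was not called either (-3.36 ± 0.62, adjusted p = 0.0632). Mature sequences were found for 270 of the 300 genes (RefSeq, GRCm38.p6), and 1 arm of each gene named is given here to identify it, since neither arm was measured. The seed, bases 2 to 8, is in capitals; no seed occurs more than once among the arms shown.
miR-377-3p: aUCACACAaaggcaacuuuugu
miR-300-3p: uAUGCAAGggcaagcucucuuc
miR-543-3p: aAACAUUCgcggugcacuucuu
miR-154-3p: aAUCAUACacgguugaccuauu
miR-136-3p: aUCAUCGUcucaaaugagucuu
miR-10a-5p: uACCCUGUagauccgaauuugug
miR-100-5p: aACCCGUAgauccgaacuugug
miR-9-5p: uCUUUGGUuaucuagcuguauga
miR-219a-5p: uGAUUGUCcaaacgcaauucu

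Genes of cell division gave no call. None of 32 mitotic genes was called by limma (1 higher and 0 lower at an unadjusted p under 0.05), and none of 32 S phase genes (0 higher and 1 lower), with medians of 0.16 and -0.02. Cdk1, the mitotic kinase, was at 12.05, 12.71 and 12.63. Inhibitors of the cell cycle did change: Cdkn1c, which encodes p57 and accompanies the exit of neurons from the cycle, fell as given above, and Cdkn2c, which encodes p18 and inhibits the kinases of D cyclins, rose from 8.94 to 10.67 and 10.98 (1.89 ± 0.24, adjusted p = 0.0232). Gadd45g, a stress and differentiation gene, fell from 10.72 to 9.22 and 9.25. In this list of 18 inhibitors and D cyclins no call held without each OPC array, and 3 rose and 5 fell without either oligodendrocyte array. The p53 target list had no call by limma among 20 (7 higher and 1 lower at an unadjusted p under 0.05), with Eda2r highest at 2.11 ± 0.38 (adjusted p = 0.0601); 1 was called higher without the passage 3 array, and 7 higher and 1 lower without either oligodendrocyte array.

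Glycolysis and hypoxia genes fell in part, with 9 of 37 called lower, 1 higher and a median of -0.75. Pdk1, a mitochondrial kinase that inhibits pyruvate dehydrogenase, fell from 11.32 to 7.98 on both OPC arrays, and Bnip3, a mitophagy gene induced by hypoxia, from 12.72 to 9.65 and 9.25. The glucose transporter gene Slc2a1 fell from 14.19 to 11.81 and 11.32, and the enzyme genes Eno2 and Pfkl had differences of -1.79 and -1.62. Aldoc, an aldolase gene of glia, was the exception and rose from 10.63 to 13.75 and 13.12. Of 35 respiratory chain genes 0 were called by limma (0 higher and 1 lower at an unadjusted p under 0.05), with a median of 0.13. In the glycolysis list 4 were called lower without the passage 3 array, 3 without the passage 11 array and 21 without either oligodendrocyte array, with 1, 1 and 2 higher, and Pdk1, Bnip3, Slc16a3 and Aldoc held without either OPC array.

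Metal-binding and antioxidant genes rose in part. Of 29 iron and antioxidant genes 4 rose and 1 fell. The metallothionein genes Mt2 and Mt3 rose from 10.25 to 13.17 and 13.58 and from 9.97 to 12.38 and 12.36, and Mt1 was higher without a call (1.78 ± 0.37, adjusted p = 0.0835). Gclm, which encodes a subunit of the enzyme that limits glutathione synthesis, and Gstm1, which conjugates glutathione, rose by 1.75 and 1.55. Tfrc, the transferrin receptor gene, fell from 11.81 to 10.79 and 10.60. In the iron list 2 were called higher and 0 lower without each OPC array in turn, and 8 and 4 without either oligodendrocyte array; Mt2 and Mt3 held without either OPC array. Of 28 immediate early genes, Nr4a1 rose and Atf3 fell, and neither call held with an OPC array left out (0 in each, and 4 and 4 without either oligodendrocyte array). Cholesterol and fatty acid synthesis genes gave no call by limma among 33 (3 higher and 0 lower at an unadjusted p under 0.05), with a median of 0.01.

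Several of the 25 largest differences each way belonged to none of these groups. Scrg1, a secreted protein gene of glia and cartilage, rose from 6.86 to 11.26 and 11.65 (4.59 ± 0.31, adjusted p = 0.0062). Slc15a2, a peptide transporter gene, rose from 7.26 to 11.07 and 11.09. Ephx1, which encodes microsomal epoxide hydrolase, rose from 8.87 to 12.32 and 12.54, Pde7b, a cAMP phosphodiesterase gene, from 7.51 to 10.89 and 10.95, and Gatm, the enzyme of the committed step of creatine synthesis, from 9.31 to 12.66 and 12.74. All 5 were called without either OPC array as well.

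Among the largest falls outside the groups, Mab21l2, a gene of eye and neural patterning, was at 12.37 in the rosette and at 8.52 and 8.63 in OPCs (-3.79 ± 0.17, adjusted p = 0.0036). Prmt8, the neuron-specific arginine methyltransferase gene, fell by 3.66, Plk3, a stress-responsive kinase gene, fell from 12.29 to 9.11 and 8.95, and Ppp1r17, a phosphatase inhibitor gene, from 9.67 to 6.31 and 6.18. Igdcc3, an immunoglobulin-domain gene of the early neural tube, fell from 12.48 to 8.89 and 9.14. Nxph4, a neurexophilin gene, fell from 11.53 to 8.26 and 8.40. Gng3, a G protein subunit gene of neurons, fell from 12.13 to 9.54 and 8.29, and its OPC arrays lay 1.25 apart. All 7 were also called with each OPC array left out in turn.

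The 2 OPC arrays did not always lie on the same side of the rosette. For 12 genes they were at least 2-fold apart and lay on opposite sides of it by at least 0.3 each, and none of these was called. In 11 the passage 3 array was the higher, among them the matrix genes Thbs2 (9.03 in the rosette, 11.39 at passage 3 and 8.57 at passage 11), Nid1 (9.04, 11.13 and 8.69) and Fn1, which encodes fibronectin (11.03, 11.62 and 10.23). Only Itga4, an integrin gene, was higher at passage 11 (9.55 in the rosette, 8.88 at passage 3 and 10.10 at passage 11). The mean of the OPC arrays is no measure of either passage for these genes, and the contractile genes Acta2 and Tagln, given above, had the same order of passages while lying above the rosette on both.

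**Figure D5:**
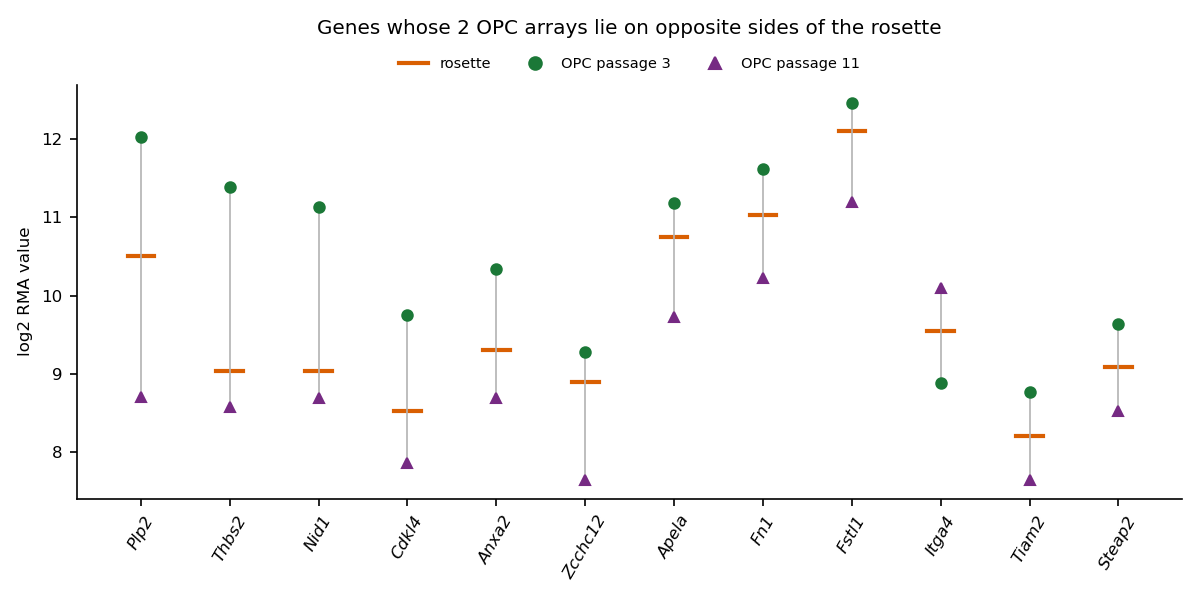
Genes whose 2 OPC arrays lie on opposite sides of the rosette (y axis, log2 RMA value): rosette (orange bar), OPCs at passage 3 (green circle) and at passage 11 (purple triangle). Passage 3 is the higher in every gene but Itga4, and the widest gap is that of Plp2, at -3.32 for passage 11 minus passage 3.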

How the data were processed

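RNA (150 ng of total RNA per array) was hybridised to Affymetrix arrays, per the labels' protocols. The deposited values are log2 expression values which the authors obtained by RMA; the submitters' processing notes name Affymetrix Expression Console as the program, and its version was not used here. Of 35556 transcripts, 21789 carried 1 gene symbol, 1621 several and 12146 none, and the 19938 genes were named from the platform annotation, with symbols checked by Entrez ID against RefSeq (GRCm38.p6; 21698 matched). The arrays hold no counts, so their number limits the precision.

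A linear model with 4 groups was fitted to all 6 arrays with limma 3.58.1 (lmFit, eBayes, R 4.3.3; 2 residual and 3.32 prior degrees of freedom), and p-values were adjusted by Benjamini-Hochberg over all 19938 genes. Tables and figures used Python 3.11.15, pandas 2.3.3 and matplotlib 3.10.9, and the fit was tested on simulated data. Genes were named if they were among the 25 largest called changes each way, called members of 62 gene lists and up to 4 further members with the largest differences, cell type markers, or among 12 genes with OPC arrays on opposite sides of the rosette; some other members are named for contrast, chosen after their values were seen. The members and lists were chosen with earlier results of these data known. The passage numbers are shared by OPCs and oligodendrocytes, which were grown from the OPCs, but the rosette has none, so passage cannot pair the groups compared. Alternatives were a passage block, fewer arrays, a variance trend, a filter on dim genes, array medians subtracted, quantile normalization repeated, the mean of a gene's transcripts and each replicate left out.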

Additional observations from a re-analysis of the deposited data

Results flagged for a closer look

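For 12 genes the passage 3 OPC array moved one way from the rosette and the passage 11 array the other way, with 1 array each, so the difference between the passages was not tested. Values are log2, first passage 11 minus passage 3, then each passage minus the rosette. Plp2, a membrane protein gene, had -3.32, from 1.52 at passage 3 and -1.81 at passage 11. The matrix genes Thbs2 and Nid1 had -2.82 (2.36 and -0.46) and -2.44 (2.09 and -0.35), and Fn1 had -1.40 (0.59 and -0.80). Anxa2, a calcium-dependent membrane-binding protein gene, had -1.65 (1.04 and -0.61), and Fstl1, a secreted glycoprotein gene, had -1.26 (0.35 and -0.90). Cdkl4 had -1.89 (1.23 and -0.66), Zcchc12 had -1.63 (0.39 and -1.24), and Apela, a peptide ligand gene, had -1.45 (0.43 and -1.02). Tiam2 and Steap2 had -1.12 each (0.57 and -0.55, and 0.55 and -0.57). Itga4, the integrin alpha 4 gene, went the other way, with 1.23 (-0.68 and 0.55).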

How the results depend on the processing

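With the passage as a replicate block, which the rosette cannot share, 472 genes were called higher and 734 lower, and 621 of the 624 calls were kept. A fit to the OPC and rosette arrays alone called 1128 and 1769. Leaving out 1 replicate gave 71 to 1128 genes higher and 85 to 1769 lower. A variance trend (232 and 391), leaving out dim genes (228 and 301 of 14953), subtracting array medians (358 and 449), repeating quantile normalization (216 and 312) and the mean of a gene's transcripts (251 and 372) stayed within 1.5 times. The counts hide lost calls: the variance trend kept 564 of the 624 and repeated quantile normalization 491. Of the 234 called genes named in the text, repeated quantile normalization ended the call of 34 (Atf3, Cacna1e, Cacna2d2, Cacnb4, Cdh8, Cdkn2c, Dusp4, Epha3, Epha5, Epha7, Etv4, Foxp1, Gabrg1, Gadd45g, Gjc3, Gng3, Gpr17, Grm4, Irx3, Kcnj16, Lrrc4c, Mdga2, Mir100, Mlc1, Nfib, Rara, Sema6a, Smoc1, Sst, Timp3, Tnr, Usp29, Zbtb16 and Zfp536). The trend ended 9 (Atf3, Cacng8, Irx3, Sdc3, Smoc1, Sst, Syn2, Tfrc and Tnr), and leaving out dim genes 9 (Atf3, Grm4, Irx3, Mmp24, Rara, Sema6a, Sst, Syn2 and Tnr). The cause was not tested. No call changed its sign under any of these alternatives. All 12 genes whose passages lie on opposite sides of the rosette, none of them called, changed sign with an OPC array left out: the difference ran from -1.81 to 1.52 for Plp2, -0.46 to 2.36 for Thbs2, -0.35 to 2.09 for Nid1, -0.66 to 1.23 for Cdkl4, -0.61 to 1.04 for Anxa2, -1.24 to 0.39 for Zcchc12, -1.02 to 0.43 for Apela, -0.80 to 0.59 for Fn1, -0.90 to 0.35 for Fstl1, -0.68 to 0.55 for Itga4, -0.55 to 0.57 for Tiam2 and -0.57 to 0.55 for Steap2. With quantile normalization repeated, Itga4 was at 0.066, Steap2 at 0.0075 and Tiam2 at -0.038, and with array medians subtracted Steap2 was at 0.036, each with the other sign. Slide and scan date were not used here. For calls whose dimmer side lies low, array background limits the size of the difference: 42 genes that rose and 99 that fell had a dimmer side under 8.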
